A study of Homo sapiens with 6 samples.

Results

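Of 34 genes that build, sulfate or edit heparan sulfate, 1 was lower and 1 was higher in SUM159 cultures with TβRIII knockdown (TβRIII-KD) than in control cultures. The cutoff was an adjusted p under 0.05 in limma with an absolute log2 fold change over 0.5, which 1.49% of all 22148 transcript clusters passed as lower and 0.777% as higher. SULF2, which encodes an extracellular enzyme that takes sulfate off finished heparan sulfate chains, had a signal 6.81-fold lower in TβRIII-KD. NDST4, which encodes an N-sulfotransferase of the Golgi, had a measured signal 1.91-fold higher in TβRIII-KD. However, both groups lay within the range of genes not known to be used in breast cells. Its signal could not be told apart from theirs, and the size of that fold is not exact. The other 32 genes had log2 fold changes between -0.32 and 0.34.

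The genes were taken from a list of 35 and are described by the step at which they act: 6 for the linker that ties the chain to its protein, 5 for the chain itself, 20 for sulfation and the supply of its sulfate donor, and 4 for removal. A gene was taken from array rows that carry its symbol alone, and with several rows by the row with the highest mean over the 6 arrays. In this way 34 of the 35 genes had a row, of 18276 genes in the table. NDST2 is not analysed here.

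SUM159, an established line of human breast cancer cells, stands in the study for the mesenchymal stem-like subtype of triple negative tumors. All cells were grown in matrigel, a basement membrane gel, and the labels place them at day 6 of three-dimensional culture. TβRIII-KD (labelled TGFBR3KD, n = 3 arrays) was compared with control (n = 3 arrays). Knockdown lines were made by lentiviral short hairpin RNA in the pLKO.1-puro vector with puromycin selection, from several hairpin clones. After its first xenografts the study kept to a single hairpin, called TβRIII-KD like these cultures, while the labels name no clone. Both groups are the same cell line, and the labels name no further treatment. The labels do not say whether each group is more than 1 cell population, or what vector the control cells received. The knockdown thus cannot be told apart from anything else in which the cells of the groups differ. Whether arrays of a group came from separate cultures is not stated in the labels, so p-values cover no more than the spread among these samples, and that spread may be technical.

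Each value is an RMA signal on the log2 scale for 1 transcript cluster, a set of probes that read 1 gene on the Affymetrix Human Gene array. Array medians lay between 7.67 and 7.71, and no arrays held identical values. Over all transcript clusters, which are not replicates of each other, Pearson's r was 0.992 to 0.994 within TβRIII-KD, 0.995 to 0.996 within control and 0.986 to 0.992 between the groups. For differential expression on these arrays the study's methods name limma. Their general statistics section names an unpaired test. The study reports knockdown of the TβRIII protein in SUM159 cells by immunoblot and flow cytometry. TGFBR3, the target of the hairpin, had signals of 9.72, 10.01 and 10.16 in TβRIII-KD and 10.81, 10.89 and 10.56 in control. The groups did not overlap, and the log2 fold change was -0.79 (in limma, adjusted p = 0.0145 and SE 0.13). Leaving out TβRIII-KD 2 gave an adjusted p of 0.0625, leaving out control 1 gave 0.0770, and leaving out control 2 gave 0.0554. With the unpaired test named in the study's methods (the methods' t-test), after Benjamini-Hochberg adjustment, it was 0.198.

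Heparan sulfate is a linear sugar polymer carried by core proteins of the cell surface and the matrix. Enzymes of the Golgi add a short linker to a serine of the core protein, extend it with alternating sugars, and then replace acetyl groups with sulfate and place further sulfates along the chain. The pattern of sulfates sets which growth factors and receptors bind, and the extracellular endosulfatases change it after the chain has left the cell. TβRIII is itself a proteoglycan, whose core protein can carry heparan sulfate and chondroitin sulfate chains. No chain or sulfate was measured on the arrays, which read RNA.

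**Figure D1:**
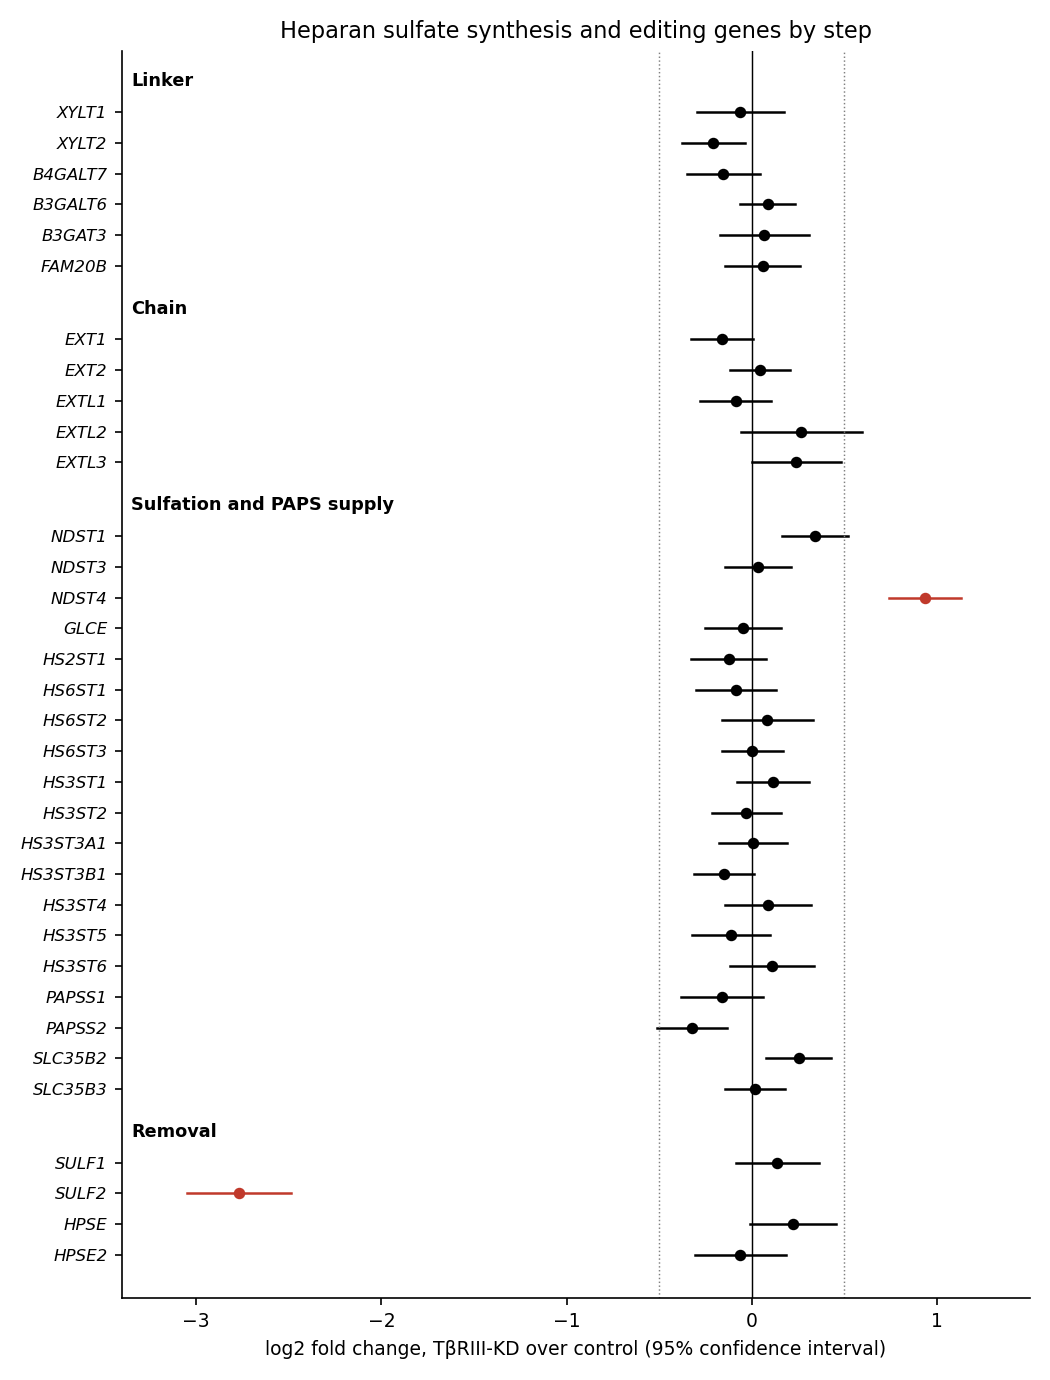
Difference between TβRIII-KD and control as a log2 fold change (x axis, positive where TβRIII-KD is higher) for the 34 genes with a row, ordered by step. Dots are limma estimates from 3 arrays per group, bars are 95% confidence intervals, dotted lines mark the fold limit of 0.5, and red marks the genes past the cutoff. SULF2 at -2.77 and NDST4 at 0.93 stand apart, and the other 32 lie between -0.32 and 0.34.

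Among the removal genes, SULF2 fell in TβRIII-KD. The signals were 7.38, 7.29 and 7.64 in TβRIII-KD and 9.99, 10.36 and 10.27 in control. The groups did not overlap, and the lowest control array lay above the highest TβRIII-KD array by many times the spread within either group. The means were 7.44 ± 0.18 in TβRIII-KD and 10.21 ± 0.19 in control (SD, n = 3 each), a log2 fold change of -2.77 (in limma, SE 0.12, 95% confidence interval -3.05 to -2.49, adjusted p = 3.83e-05). By an exact two-sided permutation test of the 6 arrays the p was 0.1, the smallest that 3 arrays against 3 allow. SULF2 ranked 5 of the 284 genes lower at the cutoff by size of fold change. In whole cultures, fewer cells with the transcript and less of it per cell cannot be told apart.

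SULF1 encodes the other human endosulfatase, which removes the same 6-O-sulfates as SULF2. It had signals of 7.87, 8.06 and 7.75 in TβRIII-KD and 7.65, 7.80 and 7.83 in control. These ranges overlapped, and the log2 fold change of 0.14 did not pass the test (in limma, SE 0.098, 95% confidence interval -0.088 to 0.36, adjusted p = 0.582). The interval holds 0 and rises of up to 0.36, and does not reach a fall of the size seen for SULF2.

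To test whether the endosulfatases changed unequally, the SULF1 signal was taken from the SULF2 signal on each array. The difference of log2 signals was -0.49, -0.77 and -0.11 in TβRIII-KD and 2.34, 2.55 and 2.44 in control, and the groups lay far apart. The means were -0.46 ± 0.33 in TβRIII-KD and 2.45 ± 0.11 in control (SD, n = 3 each), and they differed by -2.90 (p = 0.1, two-sided, by exact permutation of the arrays, again the lowest it can give). Array signals of different genes are not on a common scale, so the sign of this difference on an array does not say which transcript was more abundant.

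**Figure D2:**
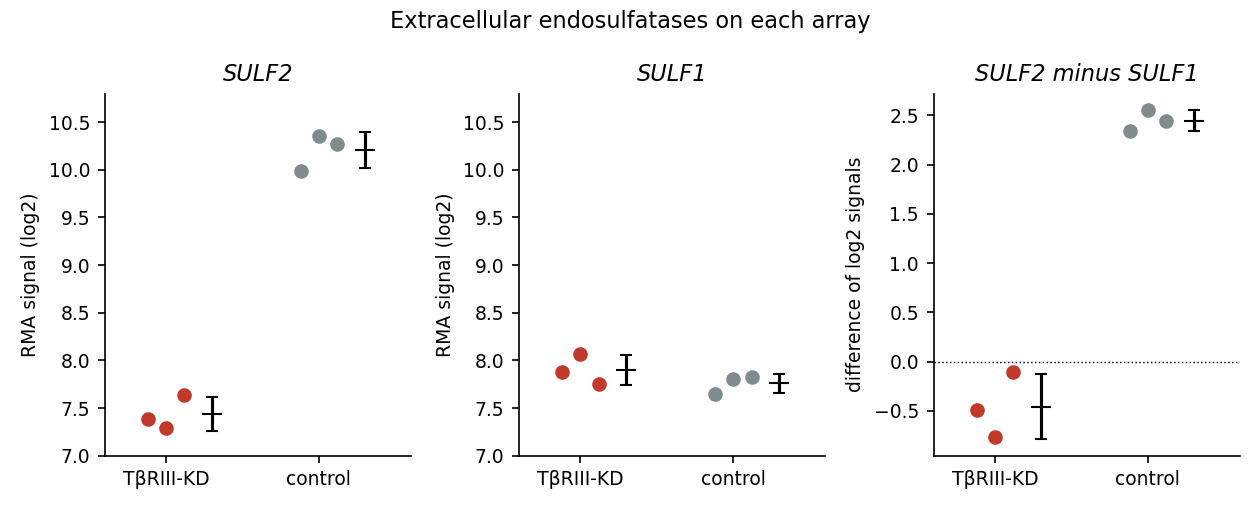
RMA signal (log2) of SULF2 and SULF1 and their difference on each array, with TβRIII-KD in red and control in grey, 1 dot per array, with the mean ± SD (n = 3) drawn to the right of them. TβRIII-KD spans 7.29 to 7.64 for SULF2 and control spans 9.99 to 10.36, while the SULF1 arrays of the groups overlap.

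The table holds no detection call, so 355 olfactory receptor genes, which are not known to be used in breast cells, served as a gauge of dim signal. Their mean log2 signals had a median of 5.26 and a 95th percentile of 6.79, and 67.9% of all genes lay above that percentile. Of the 34 heparan sulfate genes, 29 lay above it. The 5 that did not were NDST3, NDST4, HS6ST2, HS3ST5 and HPSE2.

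HPSE encodes heparanase, which cuts heparan sulfate chains. Its log2 fold change was 0.22 (in limma, adjusted p = 0.348 and SE 0.10), with signals of 8.46 to 8.54 in TβRIII-KD and 8.08 to 8.45 in control that did not overlap. HPSE2 encodes a relative that lacks this activity and binds the same chains. Its log2 fold change was -0.062, and its signal could not be told apart from the olfactory receptor genes.

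The linker is begun by the xylosyltransferases XYLT1 and XYLT2, which put xylose on the core protein. XYLT2 had signals of 8.42, 8.31 and 8.49 in TβRIII-KD and 8.60, 8.62 and 8.62 in control. The groups did not overlap, but the gap was small, and the log2 fold change of -0.21 did not pass the test (in limma, adjusted p = 0.221 and SE 0.075). XYLT1 overlapped, with a log2 fold change of -0.063 (in limma, adjusted p = 0.834).

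The galactosyltransferases B4GALT7 and B3GALT6, the glucuronyltransferase B3GAT3 and the xylose kinase FAM20B complete the linker, which chondroitin sulfate shares. Their log2 fold changes were -0.15, 0.085, 0.067 and 0.059. B3GALT6 had arrays that did not overlap, 8.26 to 8.28 in TβRIII-KD and 8.16 to 8.20 in control, at a very small difference (in limma, adjusted p = 0.608). The median log2 fold change of the 6 linker genes was -0.0019.

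EXT1 and EXT2 together form the polymerase that extends the chain, EXTL3 adds its first N-acetylglucosamine, and EXTL1 and EXTL2 encode related transferases. EXTL2 had the largest fold change of the step. Its signals were 7.49, 7.30 and 7.15 in TβRIII-KD and 6.99, 7.34 and 6.80 in control. The groups overlapped, control 2 lay above 2 of the TβRIII-KD arrays, and the log2 fold change of 0.27 had the widest error of all 34 genes (in limma, adjusted p = 0.434 and SE 0.14).

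EXTL3 had a log2 fold change of 0.24 (in limma, adjusted p = 0.332 and SE 0.11) and overlapping arrays. EXT1 had one of -0.16 (in limma, adjusted p = 0.348 and SE 0.073), with 9.39 to 9.53 in TβRIII-KD and 9.56 to 9.66 in control. EXT2 and EXTL1 lay at 0.042 and -0.086. None of the 5 chain genes passed the test.

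The N-deacetylase and N-sulfotransferase enzymes (NDSTs) open sulfation by replacing acetyl groups of the chain with sulfate. NDST4 had signals of 5.55, 5.68 and 5.83 in TβRIII-KD and 4.75, 4.77 and 4.74 in control. The groups did not overlap, and the control arrays lay within a very narrow range. The means were 5.69 ± 0.14 in TβRIII-KD and 4.75 ± 0.014 in control (SD, n = 3 each), a log2 fold change of 0.93 (in limma, SE 0.085, 95% confidence interval 0.74 to 1.13, adjusted p = 0.00108, and exact two-sided permutation p = 0.1, the smallest possible). Both groups' signals lay below the olfactory receptor 95th percentile of 6.79, and the control mean lay below the olfactory receptor median of 5.26. The NDST4 signal could thus not be told apart from the olfactory receptor genes, and this fold change cannot be read as an exact size.

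NDST1, the NDST used in most tissues, had signals of 9.42, 9.44 and 9.49 in TβRIII-KD and 9.19, 8.996 and 9.16 in control. All TβRIII-KD arrays lay above all control arrays, but the log2 fold change of 0.34 did not pass the cutoff (in limma, SE 0.078, 95% confidence interval 0.16 to 0.52, adjusted p = 0.0575). Its adjusted p lay between 0.0328 and 0.175 over the alternatives, and its fold change stayed under 0.5 in all of them. NDST3 had a log2 fold change of 0.035 (in limma, adjusted p = 0.886) at dim signal.

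PAPS, the donor of every sulfate placed on the chain, is made by the synthases PAPSS1 and PAPSS2 and carried into the Golgi by the transporters SLC35B2 and SLC35B3. PAPSS2 had signals of 7.34, 7.53 and 7.31 in TβRIII-KD and 7.75, 7.65 and 7.75 in control. The groups did not overlap, and the log2 fold change was -0.32 (in limma, adjusted p = 0.0829 and SE 0.083), short of the cutoff. SLC35B2 had signals of 10.18, 10.06 and 10.06 in TβRIII-KD and 9.76, 9.88 and 9.91 in control. These did not overlap either, with a log2 fold change of 0.25 (in limma, adjusted p = 0.140 and SE 0.077). PAPSS1 and SLC35B3 had log2 fold changes of -0.16 and 0.017, and their arrays overlapped.

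The remaining sulfation genes had overlapping arrays with the exception of HS3ST3B1, and none passed the test. GLCE, the epimerase that turns glucuronic into iduronic acid, had a log2 fold change of -0.049, and HS2ST1, which sulfates that iduronic acid, one of -0.13. The 6-O-sulfotransferases HS6ST1, HS6ST2 and HS6ST3 place the sulfates that SULF1 and SULF2 remove. Their log2 fold changes lay between -0.088 and 0.083, and their 95% confidence intervals spanned -0.30 to 0.33. HS6ST1 has another row with a log2 fold change of -0.12, and since a near-identical copy of the gene exists in the genome its values are uncertain.

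The 3-O-sulfotransferases (HS3ST1, HS3ST2, HS3ST3A1, HS3ST3B1, HS3ST4, HS3ST5 and HS3ST6) add the rarest sulfate of the chain, known for its part in binding antithrombin and a herpesvirus glycoprotein. Their 7 log2 fold changes lay between -0.15 and 0.12, with 95% confidence intervals that spanned -0.33 to 0.34. HS3ST3B1 had the lowest of them, -0.15 (in limma, adjusted p = 0.365 and SE 0.071). HS3ST3A1 and HS3ST3B1 are close paralogs, so probes may be shared between them.

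**Figure D3:**
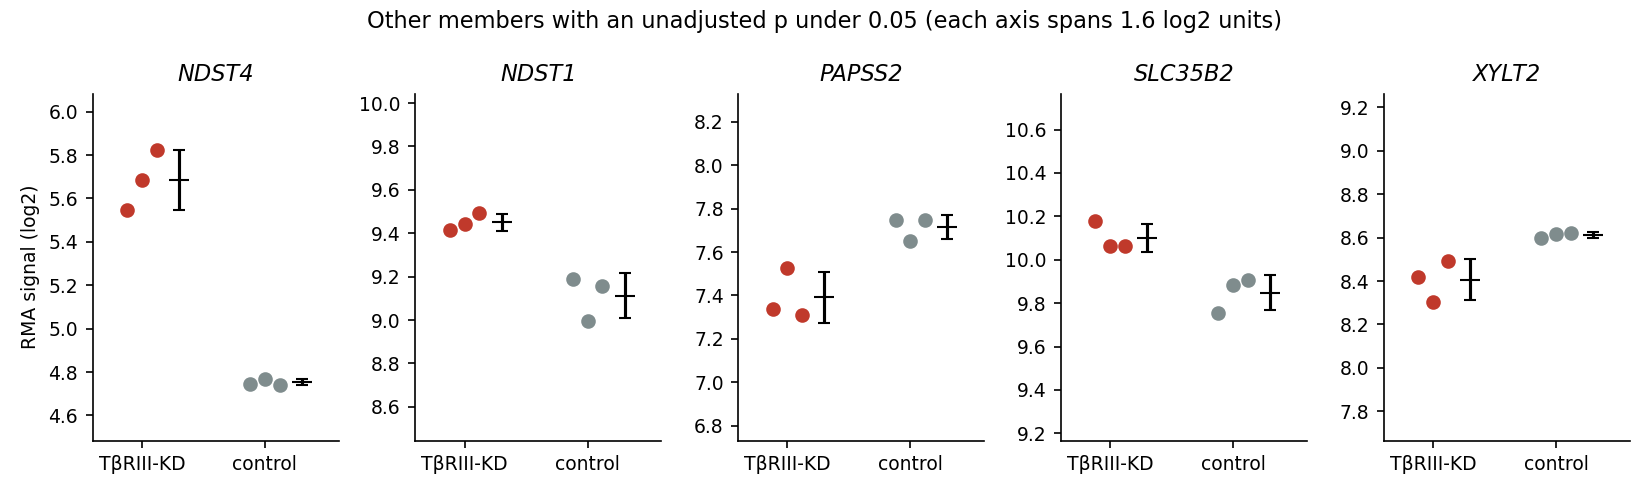
RMA signal (log2) on each array for NDST4, NDST1, PAPSS2, SLC35B2 and XYLT2, the genes other than SULF2 with an unadjusted p under 0.05, with TβRIII-KD in red and control in grey, 1 dot per array, with the mean ± SD (n = 3) drawn to the right of them. Each axis covers the same number of log2 units. The groups do not overlap in any of the 5 genes, against 20.7% of all transcript clusters without overlap. Choosing the genes by their p favours this. NDST4 shows the widest gap, with all arrays under 6.79.

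Counted over all 34 genes, 6 had an unadjusted p under 0.05, which is 17.6% of them against 15.2% of all transcript clusters tested. NDST4, NDST1 and SLC35B2 were the positive ones and SULF2, PAPSS2 and XYLT2 the negative ones. Arrays did not overlap between the groups in 10 genes, 29.4% of the 34 against 20.7% of all transcript clusters. In 5 of these TβRIII-KD was higher (NDST1, NDST4, SLC35B2, HPSE and B3GALT6) and in 5 it was lower (SULF2, XYLT2, EXT1, HS3ST3B1 and PAPSS2). The 34 log2 fold changes had a median of 0.012, beside 0.014 over all genes, with 19 positive and 15 negative.

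The median was 0.042 for the chain, 0.0063 for sulfation and PAPS supply, and 0.037 for removal. Of the 34 genes, all but SULF2 and NDST4 had log2 fold changes of -0.32 to 0.34. Limits of -0.35 and 0.35 lie just outside that range, and 93.2% of all genes in the table fell between them. For the 28 genes with an unadjusted p of 0.05 or more, the 95% confidence intervals spanned -0.38 to 0.59 on the log2 scale. Each of these intervals held 0, which follows from choosing the genes by that p. A fall as large as that of SULF2 lay outside all of them.

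The spread between arrays was similar for the heparan sulfate genes and the whole table. The SD of the 34 genes had a median of 0.11 in TβRIII-KD and 0.090 in control, beside medians over all genes of 0.11 in TβRIII-KD and 0.086 in control. TβRIII-KD 3 was the lowest array of its group in 16 of the 34 genes (47.1%), and in 39.5% of all genes. For SULF2 it was the highest array of its group, and for NDST4 likewise.

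Other genes of the pathway were counted in the same fit and at the same cutoff. Of all transcript clusters, 0.777% passed it as higher and 1.49% as lower. Of 16 genes for core proteins that carry heparan sulfate, TGFBR3, the target of the hairpin, was the only one past the cutoff. The median log2 fold change of the 16 was 0.034. Syndecans, glypicans, perlecan and agrin are among the other 15, none of which passed. Arrays did not overlap in 6 of the 16 (37.5%, against 20.7% of all transcript clusters). TβRIII-KD was higher in 3 and lower in 3, and the lower ones include TGFBR3, whose fall the hairpin was meant to bring. Among these 6, SDC1 had a log2 fold change of 0.45 and HSPG2 (perlecan) one of 0.43 (in limma, adjusted p = 0.0763 and 0.0526). SDC3 had one of -0.34 (in limma, adjusted p = 0.0980). Of 16 genes that build chondroitin and dermatan sulfate, 1 rose and 1 fell, with a median of 0.0089. UST, which sulfates uronic acid at the 2-O position, had a log2 fold change of 0.57 (in limma, adjusted p = 0.0196 and SE 0.10). CHST15, which adds a further sulfate to chondroitin sulfate A, had one of -0.55 (in limma, adjusted p = 0.0359 and SE 0.11). The call of UST was lost without TβRIII-KD 2 or any 1 of the 3 control arrays (adjusted p 0.0510 to 0.0973), and that of CHST15 without any 1 array other than TβRIII-KD 3 (adjusted p 0.0574 to 0.123). Both calls were also lost under the methods' t-test with adjustment (adjusted p 0.181 for UST and 0.236 for CHST15).

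Sulfotransferases that use PAPS for other substrates gave 1 rise and 1 fall among 19 genes, with a median of 0.0017. SULT1E1, which sulfates estrogens, had signals of 11.49, 11.36 and 11.17 in TβRIII-KD and 9.58, 10.16 and 9.80 in control. The groups lay more than 1 log2 unit apart, and the log2 fold change was 1.49 (in limma, adjusted p = 0.00148 and SE 0.15), a signal 2.81-fold higher in TβRIII-KD. CHST1, which sulfates keratan sulfate, had a log2 fold change of -0.62 (in limma, adjusted p = 0.0375 and SE 0.13). The call was lost when TβRIII-KD 1, TβRIII-KD 2, control 1 or control 3 was left out (adjusted p 0.0920 to 0.155), and under the methods' t-test with adjustment (adjusted p 0.259).

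No gene passed the cutoff among those that supply sugar nucleotides, take up sulfate or recycle PAPS, break heparan sulfate down in lysosomes, or encode other sulfatases and their activating enzymes. All 11 sugar nucleotide genes had log2 fold changes below 0 (10 of 11 after a repeat of quantile normalization), as had 45.5% of all genes, and their median was -0.058. The smallest p among them was that of SLC35B4, a Golgi transporter of sugar nucleotides, at a log2 fold change of -0.48 (in limma, adjusted p = 0.0592). The 4 genes of sulfate uptake and PAPS turnover had a median of 0.13, and the smallest p was that of the sulfate transporter SLC13A4 at 0.15 (in limma, adjusted p = 0.50). The 8 lysosomal genes had a median of -0.015, with the smallest p for the acetyltransferase HGSNAT at 0.23 (in limma, adjusted p = 0.151). The 13 genes of the other sulfatases had a median of 0.071, with the smallest p for the steroid sulfatase STS at 0.29 (in limma, adjusted p = 0.150).

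**Figure D4:**
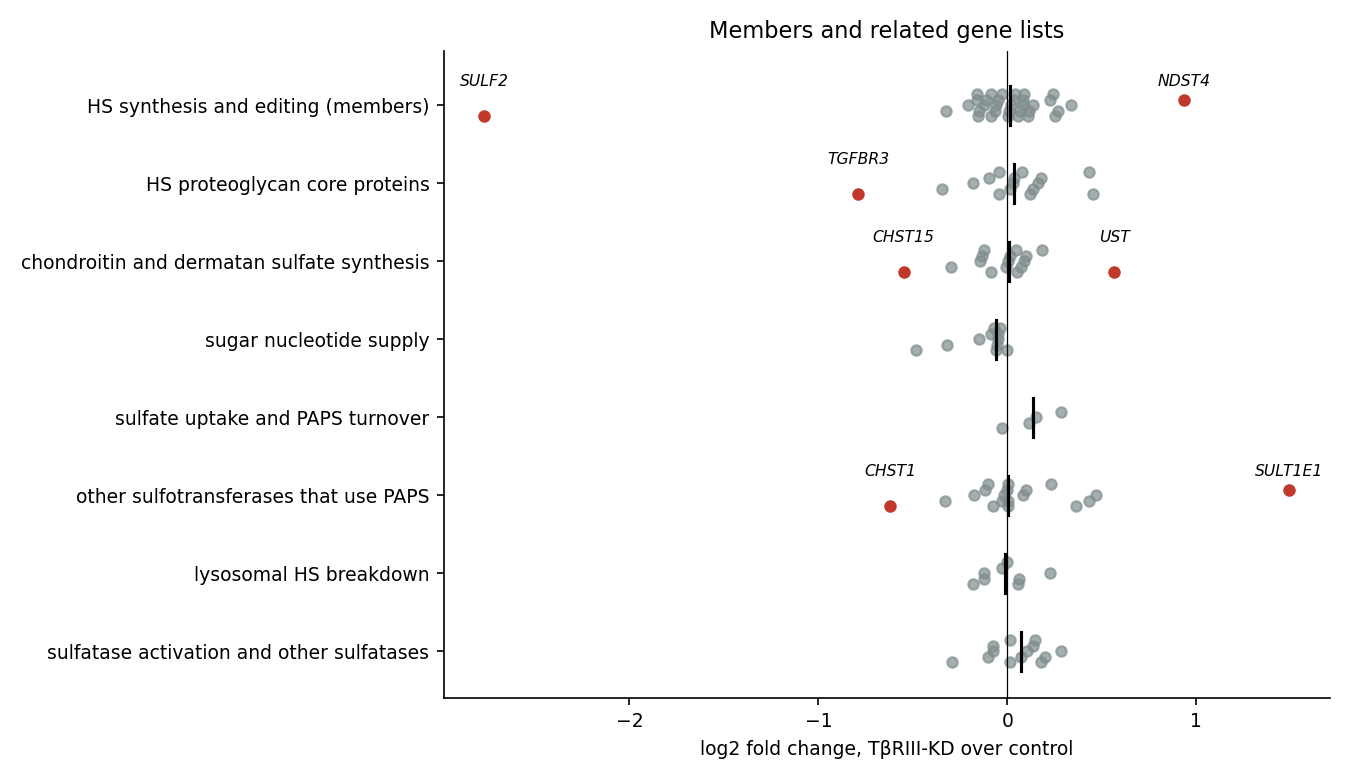
Log2 fold change (x axis, positive where TβRIII-KD is higher) for each measured gene of the heparan sulfate list and of 7 related lists, 1 dot per gene, with a black bar at the median of each list and red for genes past the cutoff. Medians lie between -0.058 and 0.13, and SULF2 at -2.77 and SULT1E1 at 1.49 lie farthest from 0.

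Neighbours of SULF2 and NDST4 in RefSeq gene order (GRCh38.p14) were looked up after the values had been seen, 3 on each side. Only protein-coding genes with a row of their symbol alone were counted. Genes without such a row were passed over, so nearer genes may be missing. On chromosome 20, the 6 neighbours of SULF2 had log2 fold changes between -0.27 and 0.056, and none passed the cutoff. On chromosome 4, those of NDST4 lay between -0.15 and 0.45. PRSS12, which encodes a secreted protease, had the highest of these, 0.45 (in limma, adjusted p = 0.0305), under the fold limit.

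Cell type markers were read beside these results. All 8 mesenchymal markers of SUM159-type cells lay above the olfactory receptor percentile. The log2 of their summed signals, in which the brightest genes weigh most, was 15.10 to 15.29 in TβRIII-KD and 15.23 to 15.33 in control. SPARC was lower in TβRIII-KD, at a log2 fold change of -0.45 (in limma, adjusted p = 0.0189), under the fold limit. SNAI2 and AXL lay at 0.27 and 0.18 (in limma, adjusted p = 0.0981 and 0.243). Arrays did not overlap in these 3 genes, 37.5% of the 8 against 20.7% of all transcript clusters. Of 9 luminal markers, ESR1, PGR, CDH1 and EPCAM did not lie above the olfactory receptor percentile. Only GATA3 of the 9 passed the cutoff, as higher, as did 0.777% of all transcript clusters. Its log2 fold change was 0.68 (in limma, adjusted p = 0.00858). KRT8 and KRT18 had lower signals in TβRIII-KD without overlap, at log2 fold changes of -0.36 and -0.38 (in limma, adjusted p = 0.0871 and 0.217). With GATA3, arrays did not overlap in 3 luminal markers, 33.3% of the 9 against 20.7% of all transcript clusters. Of the 9 log2 fold changes, 6 were positive and 3 negative. The log2 of the 9 summed signals, to which KRT8 and KRT18 add most, was 12.40 to 12.59 in TβRIII-KD and 12.66 to 12.91 in control. By the same measure, leukocyte markers (4 of 5 not above the olfactory receptor percentile) gave 10.03 to 10.46 in TβRIII-KD and 10.31 to 10.70 in control. Endothelial markers (5 of 6 not above it) gave 8.92 to 9.04 in TβRIII-KD and 8.90 to 8.97 in control.

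The summed signals of the fibroblast list differed between the groups. The log2 of the sum over its 6 genes was 11.41 to 11.79 in TβRIII-KD and 11.98 to 12.08 in control, without overlap. LUM, THY1 and FAP did not lie above the olfactory receptor percentile, while DCN, PDGFRA and PDGFRB did. None of the 6 had an adjusted p under 0.05 in limma. The log2 fold changes ran between -0.68 for FAP, at dim signal, and 0.15 for LUM, with THY1 at -0.0020. DCN, PDGFRA and PDGFRB, which make up most of the sum, had -0.24, -0.40 and -0.54. Arrays did not overlap in 3 of the 6 (50%, against 20.7% of all transcript clusters). The part of this list and of the luminal list, which also did not overlap, in the fold changes of SULF2 and NDST4 was not tested.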

How the data were processed

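The authors deposited log2 signals per transcript cluster for 6 arrays, made by RMA in the oligo package (R 3.0.1, per the labels and methods). RMA corrects background, equalizes array distributions, which hides any shift of all genes together, and summarizes probes by median polish. The sources used here give neither the filter behind the table nor the version of oligo.

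Samples were grouped by label. The fit of TβRIII-KD against control used limma 3.58.1 under R 4.3.3 (no trend, no covariate), and p-values were adjusted by the Benjamini-Hochberg method over 22148 transcript clusters. SE is limma's moderated standard error. Gene symbols came from the platform annotation. The members and gene lists were chosen with earlier results of these data known, and no list was tested as a set. Named are TGFBR3, all members with a row (values per array for those with an unadjusted p under 0.05 and for the largest fold change of each step) and, per related list, genes past the cutoff or that with the smallest p. Chromosome neighbours and single markers were named after their values were seen. The fit was tested on simulated data.

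Alternatives were moderation with trend or robust, array weights, the methods' t-test, filters on dim or unannotated clusters, other scalings, a replicate block, other fold limits, the mean of a gene's clusters and each array left out. For the related genes they were added after seeing the data. The number of arrays limits the precision.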

Additional observations from a re-analysis of the deposited data

How the results depend on the processing

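SULF2 kept its direction and its call under all 18 alternatives, with a log2 fold change of -2.88 to -2.69 when 1 array was left out and an adjusted p of 1.22e-05 to 0.0495, the highest from the methods' t-test after Benjamini-Hochberg adjustment. SULF2 minus SULF1 differed between groups by -3.08 to -2.75 when 1 array was left out. NDST4 lost its call under the methods' t-test with adjustment (adjusted p = 0.0701), under the median-signal and the olfactory receptor filters, which drop its cluster, and under a fold limit of 1, so that 0 members were then higher; with the t-test unadjusted it was called. The count of members lower stayed at 1.

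Over all transcript clusters, 1 was higher and 16 were lower under the methods' t-test with adjustment, 37 and 103 with a fold limit of 1, 275 higher with no fold limit and 114 higher above the median signal, a filter that tests fewer clusters. Leaving out 1 array gave 88 to 251 higher and 215 to 387 lower. Without TβRIII-KD 2, 104 passed as higher and 215 as lower, without control 1 these were 88 and 216, and 110 passed as higher without control 3. The cause was not tested.

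With a replicate block, 229 clusters were higher and 387 lower, and the adjusted p of SULF2 was 1.22e-05. Same-numbered arrays of the groups deviated together with r of -0.060, 0.11 and 0.31. Arrays of unlike number gave r of -0.39 to 0.34, a range that holds these values, so the numbers were not taken to pair the samples.

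Of the other 33 members, 20 kept their sign in every alternative and 13 turned in at least 1, in 19 of 575 values, none of which passed the cutoff. NDST3 turned to -0.013 with repeated quantile normalization, HS6ST3 to -0.00018 there and to -0.010 with array weights, and HS3ST3A1 to -0.0081 with array weights. With 1 array left out, the ranges that crossed 0 were XYLT1 -0.15 to 0.028, B3GAT3 -0.038 to 0.16, FAM20B -0.012 to 0.11, GLCE -0.11 to 0.012, HS6ST1 -0.16 to 0.0011, HS6ST2 -0.023 to 0.15, HS6ST3 -0.035 to 0.028, HS3ST2 -0.063 to 0.037, HS3ST3A1 -0.046 to 0.056, HS3ST4 -0.012 to 0.17, SLC35B3 -0.015 to 0.058 and HPSE2 -0.19 to 0.0044. SULT1E1 and GATA3 lost their calls only under the methods' t-test with adjustment (adjusted p = 0.113 and 0.144).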
